A study of Mus musculus with 5 samples.

Results

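The genes described here encode the zinc-dependent proteases that cut the extracellular matrix and cell surface proteins, and the inhibitors that hold them in check. They were taken by name from the platform annotation: every probe set with a single symbol that starts with Mmp, Adam or Adamts and a number, or that is Timp1, Timp2, Timp3, Timp4 or Reck. The rule used no measured value. It gave 84 of the 22690 probe sets and 55 of the 12393 genes named by a single symbol. There were 18 Mmp genes with 25 probe sets, 25 Adam genes with 36, 7 Adamts genes with 9, and 5 inhibitor genes with 14. Expression was measured on single-colour Affymetrix arrays in endothelial cells of the mouse thymus, sorted as CD45- EpCAM- VE-Cad+ after magnetic depletion of CD45 cells. All mice were female C57BL/6J of 6 to 8 weeks. The day 0 group held 3 arrays of untreated mice and the day 4 group 2 arrays of mice harvested 4 days after a sublethal total body dose of 550 cGy (SL-TBI) from a cesium source, given without hematopoietic rescue. Each array held cells pooled from several mice, so p-values measure the spread between pools, which may be partly technical, and values are log2 expression. The cell type field named the day 4 cells CD45- thymic stromal cells and those of day 0 thymic endothelial cells. The sort described in the protocol was common to both.

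Matrix metalloproteinases (MMPs) are secreted or membrane-bound enzymes that degrade collagens, gelatin and other matrix proteins and are made as inactive precursors. ADAM proteins sit in the cell membrane, and those with an active site release ("shed") the outer parts of neighbouring receptors, adhesion molecules and growth factors. ADAMTS enzymes are secreted and cut proteoglycans, procollagens and von Willebrand factor. The TIMP proteins bind the active sites of these enzymes, and RECK is a membrane-anchored inhibitor of several MMPs. In blood vessels these families are known for remodelling of the basement membrane, sprouting, and release of surface proteins from the endothelium.

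The comparison asked which of these genes differ in thymic endothelial cells 4 days after irradiation. The inhibitor gene Timp1, the gelatinase gene Mmp2 and the proteoglycanase gene Adamts4 rose, by 3.08-fold, 2.19-fold and 1.90-fold, and none of the genes tested was called lower. Genes were tested if a probe set had a log2 value above 4 on at least 2 arrays, which held for 30 of the 55 genes. The other 25 were not tested. Among the 30, 3 passed a Benjamini-Hochberg adjusted p of 0.05 over all 8940 genes tested (limma), all of them higher at day 4. Over all genes, 1.50% were called higher and 1.35% lower, 2.85% in all. With 0 lower calls by limma, 2 of the 30 had an unadjusted p under 0.05 in that direction. In either direction 8 of the 30 had such a p, against 21.2% of all genes. Both day 4 arrays lay above all day 0 arrays for 12 of the 30 genes, against 18.0% of all genes, and below them for 4, against 23.0%. In either direction the groups lay apart for 41.1% of all genes. The median log2 change of the 30 was 0.093, and that of all genes tested was -0.023. No member probe set passed the level filter through a single group, and 47 of the 50 that passed lay above 4 on all 5 arrays.

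**Figure D1:**
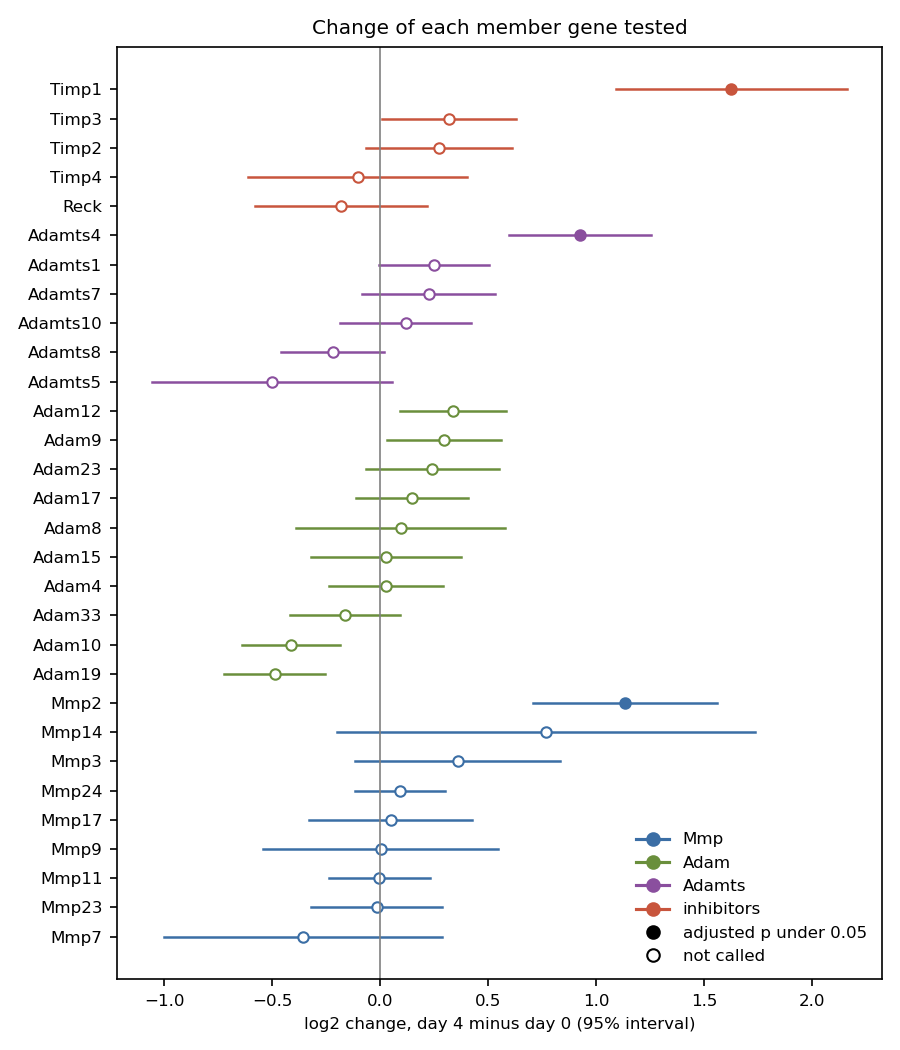
Log2 change from day 0 to day 4 of the 30 genes tested (x axis), by family (colour), with the 95% interval of the limma fit; filled points passed an adjusted p of 0.05. Timp1 (1.63), Mmp2 (1.13) and Adamts4 (0.93) are filled. Of the genes not called, the intervals of Adam10 and Adam19 lie below 0 and those of Adam12, Adam9 and Timp3 above 0.

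The inhibitors held the largest change among the 30 genes. Timp1, a broad secreted inhibitor that is known to be induced by cytokines, was measured by a single probe set. It stood at 6.25, 6.05 and 5.87 on day 0 replicates 1, 2 and 3 and at 8.03 and 7.33 on day 4 replicates 1 and 2. Both day 4 values lay more than a log2 unit above the highest untreated value. The mean went from 6.06 ± 0.19 (SD, n = 3) to 7.68 ± 0.50 (SD, n = 2), a log2 change of 1.63 ± 0.22 (SE; limma adjusted p = 0.0234). Leaving out day 4 replicate 1 reduced the change to 1.28 and ended the call (limma adjusted p = 0.0855), and the call also ended when day 0 replicate 2 (0.0569) or day 0 replicate 3 (0.0922) was left out.

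Timp3, which binds to the matrix itself and also inhibits ADAM and ADAMTS enzymes, was measured by 4 probe sets past the filter. All 4 read higher on each day 4 array than on any untreated one, yet none was called. The probe set that stands for the gene read 11.40, 11.75 and 11.62 at day 0 and 11.96 and 11.86 at day 4. Its log2 change was 0.32 (95% interval 0.0064 to 0.63, limma adjusted p = 0.230), and the 4 changes lay between 0.32 and 0.49. Timp2, an inhibitor that also takes part in the activation of pro-MMP2 on the cell surface, had 5 probe sets past the filter. On 4 of them the groups lay apart, with day 4 higher, which held for 18.9% of all 15065 probe sets tested. For the probe set that stands for Timp2 the values were 9.16, 9.08 and 8.79 at day 0 and 9.19 and 9.37 at day 4. The changes of the 5 probe sets lay between 0.25 and 0.45, and none was called, with adjusted p of 0.186 to 0.384 in the limma fit of all probe sets.

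Timp4, the TIMP with the most restricted tissue range, read 11.62, 11.49 and 11.25 at day 0 and 11.03 and 11.67 at day 4. Its day 4 arrays thus lay on both sides of the untreated ones, and its 2 probe sets gave changes of -0.11 and 0.11. The 95% interval of the first was -0.61 to 0.40, so differences within it could not be told from 0. Reck read 6.79, 7.22 and 6.78 at day 0 and 6.64 and 6.86 at day 4, also overlapping (log2 change -0.18, 95% interval -0.58 to 0.22). Of the 5 inhibitors, 1 was called higher and none lower by limma, and 2 had an unadjusted p under 0.05, Timp1 and Timp3.

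**Figure D2:**
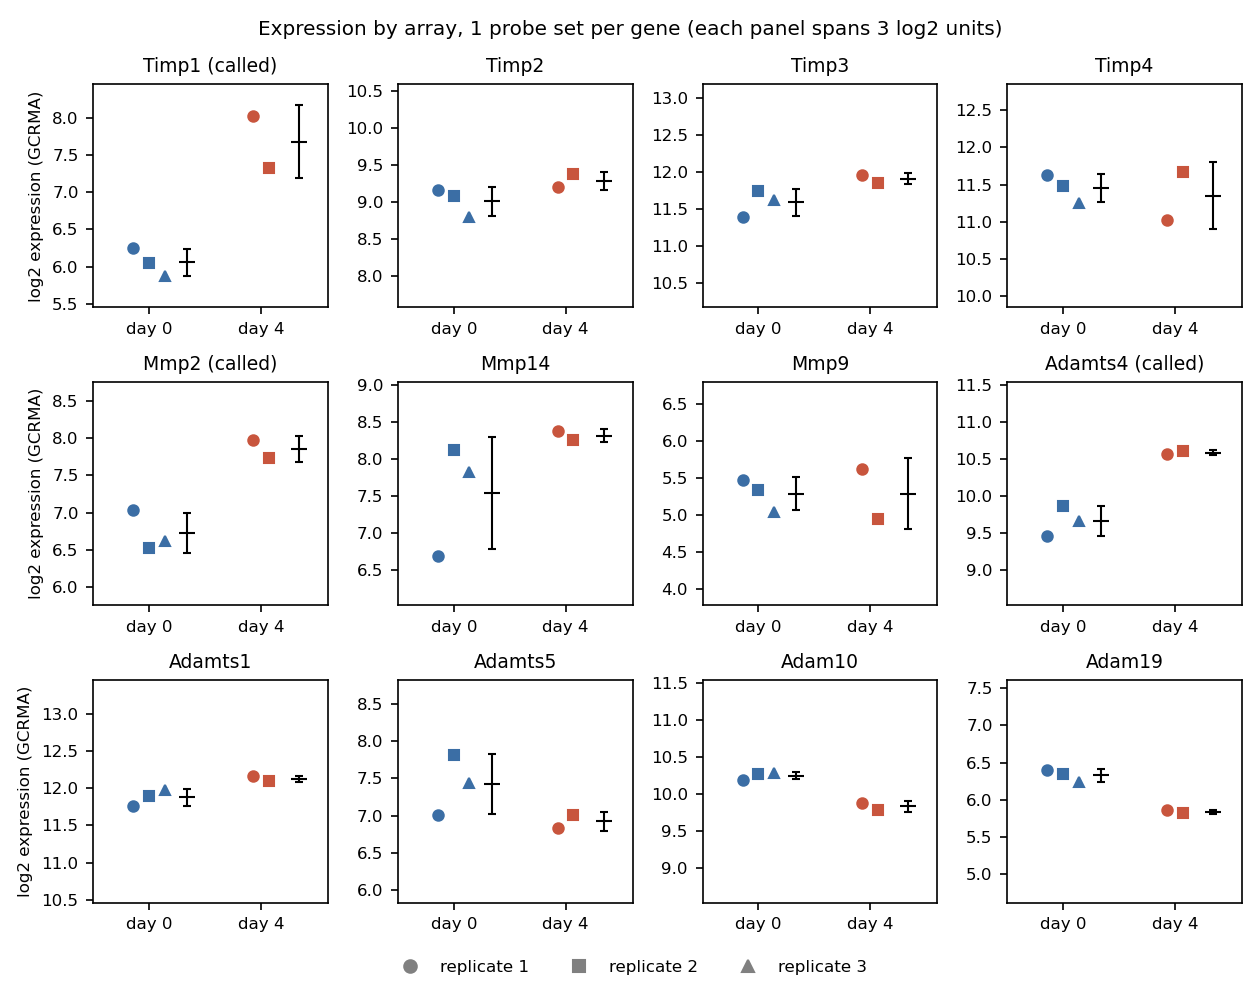
Log2 expression of 12 genes on each array (y axis; every panel spans 3 log2 units), day 0 in blue and day 4 in red, with the mean and SD beside the points. The day 4 points of Timp1, Mmp2 and Adamts4 stand clear of the day 0 points, while Mmp14 has a low day 0 replicate 1 at 6.69 and Timp4 and Mmp9 overlap.

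Among the MMPs, Mmp2 was the gene that passed the test. It encodes gelatinase A, which cuts gelatin and type IV collagen of basement membranes. It read 7.03, 6.53 and 6.61 in the untreated pools and 7.98 and 7.73 in the irradiated ones. The groups lay clearly apart. The day 0 mean of 6.72 ± 0.27 (SD, n = 3) compared with 7.86 ± 0.18 (SD, n = 2) at day 4, and the log2 change was 1.13 ± 0.18 (SE; limma adjusted p = 0.0330). A second Mmp2 probe set gave 6.93, 6.55 and 6.39 against 7.75 and 7.57. Its change of 1.04 was close in size, with an adjusted p of 0.0578 in the limma fit of all probe sets, where the first had 0.0496. The Mmp2 call was lost without day 0 replicate 2 (limma adjusted p = 0.0769), day 0 replicate 3 (0.116), day 4 replicate 1 (0.142) or day 4 replicate 2 (0.0555), and with array weights (0.0826).

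Mmp14 encodes the membrane-type enzyme MT1-MMP, which activates pro-MMP2 at the cell surface. It read 6.69, 8.12 and 7.82 at day 0 and 8.37 and 8.25 at day 4. The day 4 arrays lay above all untreated ones, but day 0 replicate 1 stood well below the other 2. The log2 change of 0.77 had a 95% interval of -0.20 to 1.73 (limma adjusted p = 0.323), and without day 0 replicate 1 it was 0.34. The other Mmp14 probe set, under the level filter, was also lowest on that array, at 3.10, against 3.56 and 3.45 on the other untreated arrays and 4.02 and 3.83 at day 4. Mmp9, the gelatinase known from neutrophils and macrophages, read 5.48, 5.35 and 5.04 at day 0 and 5.63 and 4.95 at day 4. Its day 4 arrays enclosed the untreated ones (log2 change 0.0018, 95% interval -0.54 to 0.55), and the sign of so small a change turned to -0.023 after quantile normalization and to -0.028 after median centring.

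The stromelysin gene Mmp3, whose product activates other pro-MMPs, had a change of 0.36 (limma adjusted p = 0.346) with overlapping groups, and of 0.11 to 0.60 when single arrays were left out. Mmp7, the matrilysin of epithelia, stood at 5.47, 4.82 and 4.95 against 4.37 and 5.07, and its change of -0.36 did not pass (adjusted p = 0.475). It rested on day 4 replicate 1, without which it was -0.009, and was -0.71 without day 4 replicate 2. The remaining tested MMP genes, Mmp11, Mmp17, Mmp23 and Mmp24, had changes between -0.017 and 0.090. Of these 4, Mmp24 had groups that lay apart, by a narrow margin: 4.77 and 4.80 at day 4 against 4.69, 4.68 and 4.71. In the MMP family as a whole, 1 of 9 tested genes was called higher and none lower by limma (1 had an unadjusted p under 0.05), with a median change of 0.048.

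The other 9 MMP genes stayed under the level filter. They included the 4 genes listed as collagenases (Mmp1a, Mmp1b, Mmp8 and Mmp13), Mmp10 and the macrophage elastase gene Mmp12. Mmp8, the collagenase of neutrophils, lay between 2.50 and 2.80 on the 5 arrays. Single arrays stood out for Mmp13 and Mmp12. Mmp13 read 4.92 on day 0 replicate 2 and between 1.97 and 2.52 on the other 4. Mmp12 read 4.05 on day 4 replicate 1, 3.14 on day 4 replicate 2 and 3.06, 3.02 and 3.26 at day 0. All 25 untested genes together, with 29 probe sets, had a median value of 2.68. No change is given for values this low.

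RefSeq promoter sequences (GRCm38.p6, 250 bases before each annotated start) matched 31 of the 55 genes. Mmp2 and Adamts4 were not among them. A script searched both strands for the GC box GGGCGG, bound by Sp1-type factors, for the AP-1 element TGAGTCA, bound by Jun and Fos, and for the TATA box TATAAA. The stretches below are the 120 bases before the start of 3 TIMP genes, which were measured above the filter, and of 4 MMP genes of a cluster on chromosome 9, of which Mmp3 alone was. They were chosen, with the matches known, to show promoters with and without these elements, and do not stand for their families. Capitals mark the matched letters, with TGACTCA and CCGCCC as the same elements on the other strand; no matches overlap. They lie at chrX:20870046-20870165 (plus strand, Timp1), chr11:118355412-118355531 (minus, Timp2), chr10:86300292-86300411 (plus, Timp3), chr9:7464021-7464140 (plus, Mmp1a), chr9:7445702-7445821 (plus, Mmp3), chr9:7502222-7502341 (plus, Mmp10) and chr9:7272394-7272513 (plus, Mmp13).
Timp1: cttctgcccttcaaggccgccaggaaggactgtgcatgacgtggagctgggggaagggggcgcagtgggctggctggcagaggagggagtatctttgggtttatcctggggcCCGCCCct
Timp2: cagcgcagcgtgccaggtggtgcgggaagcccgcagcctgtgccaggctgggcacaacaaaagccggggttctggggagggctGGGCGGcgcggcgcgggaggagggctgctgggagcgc
Timp3: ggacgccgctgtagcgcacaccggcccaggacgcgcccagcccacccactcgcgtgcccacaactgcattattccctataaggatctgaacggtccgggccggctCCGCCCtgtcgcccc
Mmp1a: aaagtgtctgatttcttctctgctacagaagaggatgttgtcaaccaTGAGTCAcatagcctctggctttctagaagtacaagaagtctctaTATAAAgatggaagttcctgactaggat
Mmp3: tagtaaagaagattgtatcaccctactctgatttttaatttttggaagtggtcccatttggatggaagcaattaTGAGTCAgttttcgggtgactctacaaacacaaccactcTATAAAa
Mmp10: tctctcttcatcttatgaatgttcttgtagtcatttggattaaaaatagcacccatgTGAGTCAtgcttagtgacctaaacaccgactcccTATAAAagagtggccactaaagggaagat
Mmp13: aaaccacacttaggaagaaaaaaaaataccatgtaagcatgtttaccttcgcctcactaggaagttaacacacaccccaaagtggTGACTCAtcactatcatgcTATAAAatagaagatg

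Each of these 4 MMP stretches held an AP-1 element followed by a TATA box, and each of the 3 TIMP stretches held a GC box and neither of the others, which is how they were picked. The first base of the AP-1 element lay 73 bases before the start in Mmp1a, 63 in Mmp10, 46 in Mmp3 and 35 in Mmp13. Within 250 bases, 8 of the 36 promoters of the 31 matched genes held the AP-1 element, against 4.46% of all 32851 promoters. They belonged to 8 genes, Adam19, Mmp1a, Mmp1b, Mmp3, Mmp7, Mmp10, Mmp12 and Mmp13. Of these 8 genes, 3 passed the level filter. Among all genes with a promoter and a probe set, 65.1% of those with the element passed it and 73.3% of those without. The TATA box was found in 8 of the 36 promoters, against 12.4% of all promoters. These belonged to Adamts1, Mmp1a, Mmp1b, Mmp3, Mmp7, Mmp10, Mmp13 and Mmp20, and 3 of the 8 genes passed the filter. Over all genes, 58.3% of those with a TATA box passed it and 74.6% of those without. A GC box was found in 12 of the 36 promoters, against 32.7% of all promoters. Counted by gene, 12 members held it and 19 did not. Among all genes with a promoter and a probe set, 5634 held it and 4253 did not. The 12 members were Timp1, Timp2, Timp3, Reck, Adamts1, Adam8, Adam10, Adam15 and Adam17, and also the MMP genes Mmp11, Mmp14 and Mmp24. All 12 passed the level filter, as did 6 of the 19 without it. Over all genes these shares were 82.5% and 60.1%. A match of letters is a description of the sequence and shows neither binding nor use.

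In the ADAMTS family, Adamts4 rose at day 4. It encodes aggrecanase-1, which cuts the proteoglycans aggrecan and versican. Its untreated values were 9.46, 9.87 and 9.66, and those of day 4 were 10.56 and 10.61, so the day 4 pair was tight and lay above every untreated array. The means were 9.66 ± 0.21 (SD, n = 3) and 10.59 ± 0.031 (SD, n = 2), which gave a log2 change of 0.93 ± 0.14 (SE; limma adjusted p = 0.0294). The other Adamts4 probe set, at 8.78, 9.25 and 8.96 against 10.20 and 9.93, gave 1.07, and both were called in the limma fit of all probe sets (adjusted p = 0.0447 and 0.0486), in which 0.717% of probe sets were higher and 0.677% lower. The Adamts4 call was lost without day 0 replicate 1 (limma adjusted p = 0.0521), day 0 replicate 3 (0.108), day 4 replicate 1 (0.119) or day 4 replicate 2 (0.0665), and with array weights (0.0881), at changes between 0.82 and 0.95.

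Adamts1, which cuts versican and has an antiangiogenic activity, read 11.76, 11.90 and 11.98 at day 0 and 12.16 and 12.09 at day 4. The groups lay apart, but the log2 change of 0.25 did not pass (95% interval -0.0040 to 0.50, limma adjusted p = 0.240). Adamts5, the other major aggrecanase, pointed the other way. It read 7.01, 7.82 and 7.44 at day 0 and 6.83 and 7.01 at day 4, a change of -0.50 (adjusted p = 0.270), and its second probe set gave -0.025 with overlapping groups. The values of Adamts8 were 4.34, 4.36 and 4.20 against 4.04 and 4.13, close to the level filter (change -0.22, adjusted p = 0.264). Changes of Adamts7, which cuts cartilage oligomeric matrix protein, and of Adamts10, a microfibril-associated enzyme, were 0.22 and 0.12 and did not pass. Adamts15 lay under the filter, with 4.32 on day 4 replicate 2 as its only value above 4. Of the 6 tested genes 1 was called higher and none lower by limma (1 had an unadjusted p under 0.05), and their median change was 0.17.

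None of the 10 tested ADAM genes was called by limma, while 4 had an unadjusted p under 0.05, Adam19 and Adam10 lower and Adam12 and Adam9 higher at day 4. Adam10, the main sheddase of Notch receptors and of VE-cadherin, read 10.19, 10.27 and 10.29 at day 0 and 9.89 and 9.79 at day 4. The groups lay apart, with a log2 change of -0.41 (95% interval -0.64 to -0.19, limma adjusted p = 0.0765). Its other probe sets gave -0.12 and 0.13, both with overlapping groups, so the probe sets of Adam10 disagreed. Adam10 was called with an intensity trend and robust fitting (adjusted p = 0.0372). Adam19, an active enzyme known from heart valve development, read 6.40, 6.34 and 6.23 at day 0 and 5.85 and 5.82 at day 4. Its change was -0.49 (95% interval -0.72 to -0.25, adjusted p = 0.0573), and it was called with the level filter at 6 (0.0421). The other Adam19 probe set lay under the level filter and did not show this fall. It read 3.45, 3.81 and 3.70 at day 0 and 3.84 and 3.67 at day 4, with overlapping groups.

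Adam17, which sheds tumour necrosis factor and many endothelial surface proteins, read 7.92, 7.89 and 8.09 at day 0 and 8.06 and 8.17 at day 4. Its 3 probe sets gave changes of 0.15 to 0.49, on 2 of them with groups apart, and adjusted p of 0.221 to 0.486 in the limma fit of all probe sets. Adam9 read 8.57, 8.76 and 8.61 against 9.03 and 8.85 (change 0.29, limma adjusted p = 0.199), and Adam12, a sheddase of growth factors, 5.12, 5.22 and 5.32 against 5.58 and 5.54 (0.34, adjusted p = 0.134). For both, the day 4 arrays lay above the untreated ones. Adam15, an endothelial ADAM, read 9.28, 9.23 and 9.36 against 9.10 and 9.53. Its day 4 arrays lay on both sides of the untreated ones, and its 4 probe sets gave changes between -0.12 and 0.082. Among the rest, Adam23 had a change of 0.24 with groups apart, and Adam4, Adam8 and Adam33 overlapped, with changes of 0.026, 0.095 and -0.16. The 15 untested ADAM genes included sperm and epididymal members such as Adam2, Adam3, Adam7 and Adam18, which lay under 4 on every array.

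**Figure D3:**
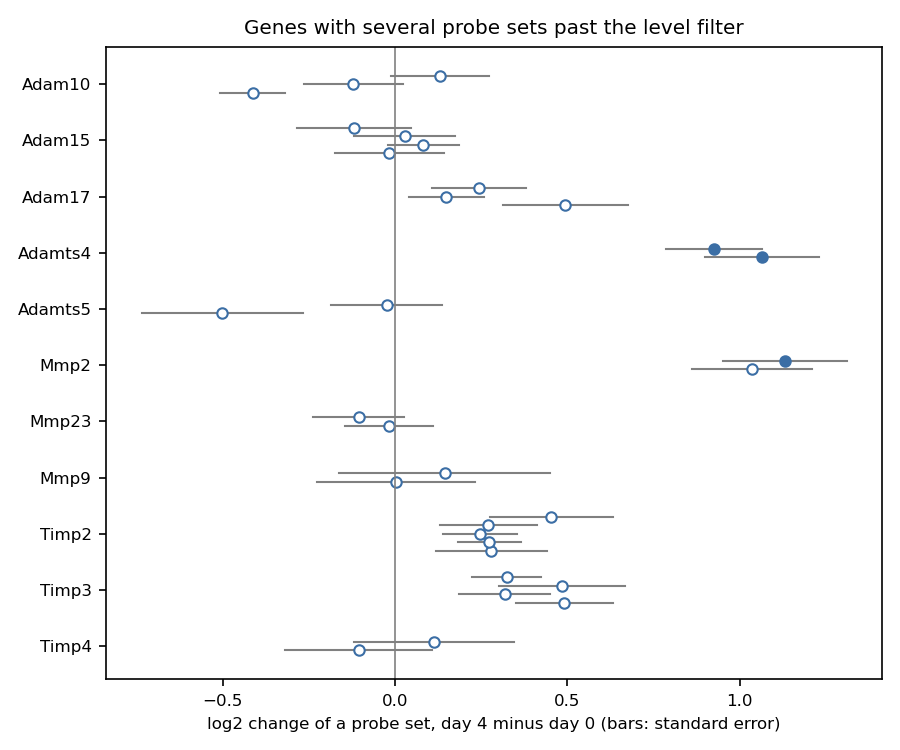
Log2 change of every probe set past the filter (x axis, with SE bars) for the 11 genes with more than 1; filled points passed an adjusted p of 0.05 over 15065 probe sets. The probe sets of Adamts4, Mmp2, Timp2 and Timp3 lie together to the right of 0, while those of Adam10, Adam15 and Timp4 fall on both sides.

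Genes that act with these proteases were read from lists chosen for their roles. Over all genes, 1.50% were called higher and 1.35% lower by limma, and 21.2% had an unadjusted p under 0.05. Of 15 tested activators and partners, such as the proprotein convertases and the tetraspanins that guide ADAM10, none was called by limma and 1 had an unadjusted p under 0.05 (median change -0.024). The largest changes were 0.52 for the hyaluronan receptor gene Cd44 and 0.27 for Furin, which removes the propeptide of many MMPs and ADAMs. Of 8 genes of the plasminogen system, which activates several MMPs, none was called and 2 had such a p (median 0.054). Plaur, the urokinase receptor gene, read 7.53, 7.59 and 7.68 at day 0 and 9.31 and 8.33 at day 4 (log2 change 1.22, adjusted p = 0.0703), and Serpinb2 had a change of -1.13 (adjusted p = 0.371). Of 11 other proteases of matrix and cell surface, the cathepsin gene Ctsb was called higher and none lower by limma, and 4 had an unadjusted p under 0.05 (median 0.21). Ctsb rose from 10.26, 10.03 and 10.13 to 10.89 and 10.68, a 1.56-fold change (limma adjusted p = 0.0485). It was called in 4 of 14 alternatives (adjusted p 0.0216 to 0.152) and in none that left out an array. Larger but uncalled differences were those of the cathepsin gene Ctss (3.40-fold, adjusted p = 0.0695) and of Adamdec1, an ADAM-like protease gene (2.76-fold, adjusted p = 0.0746), which are named after their values were seen.

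Of 7 other inhibitors and inactive relatives none was called by limma, and the median was 0.14. An unadjusted p under 0.05 was found for 3, 1 higher and 2 lower, against 21.2% of all genes. The largest changes there were -0.62 for Spint2, an inhibitor of surface serine proteases (adjusted p = 0.0573), and -0.48 for Cst3, which encodes cystatin C (0.0598). Of 10 matrix substrates of ADAMTS enzymes, 5 were tested: Thbs1, Fn1, Bgn, Vwf and Dcn. The aggrecan and versican genes, Acan and Vcan, were not tested. None of the 5 was called and 1 had an unadjusted p under 0.05. That was Thbs1, which encodes thrombospondin 1, with a change of 0.69 (adjusted p = 0.0515); the median was 0.063. Of 21 surface proteins known to be shed by ADAM10 or ADAM17, 1 was called higher and none lower (median 0.17). An unadjusted p under 0.05 was found for 9, 5 higher and 4 lower. The called gene was Procr, the endothelial protein C receptor gene, at 8.99, 9.28 and 8.99 against 10.04 and 9.95. This was a 1.88-fold change with a limma adjusted p of 0.0228. Procr was called in 9 of 14 alternatives. The call was lost with array weights (limma adjusted p = 0.0736) and without day 0 replicate 1 (0.0601) or day 0 replicate 3 (0.0922). It was also lost without day 4 replicate 1 or day 4 replicate 2, at changes of 0.87 and 0.96. Expression of a substrate gene does not measure its shedding.

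Signal of other cells differed between the groups, and is given beside these results as the mean log2 level of marker lists. In a sorted pool, more or fewer cells of a type and more or less RNA per cell cannot be told apart. Endothelial markers (10 genes, none called) lay at 10.44 to 10.61 at day 0 and at 10.25 and 10.56 at day 4. Macrophage markers (11 genes, 3 higher, 0 lower) lay at 5.57 to 6.50 at day 0 and 7.61 and 7.53 at day 4. Thymocyte markers (10 genes, 5 of 8 tested lower) lay at 5.26 to 5.97 at day 0 and at 4.21 and 4.18 at day 4. Neutrophil markers (9 genes, 3 of 4 tested lower) lay at 4.19 to 4.29 and at 3.57 and 3.63. B cell markers (4 genes, both tested ones lower) lay at 3.94 to 4.00 and at 3.23 on both day 4 arrays, and erythroid markers (3 genes, the tested one lower) at 4.02 to 4.09 and at 3.17 and 3.05. Platelet markers (5 genes, 1 higher) lay at 5.76 to 5.97 and at 6.12 and 6.07. Thymic epithelial markers (10 genes, none of 9 tested called) lay at 6.15 to 6.69 and at 6.07 and 5.47. Members of a list did not all move together. Of the macrophage markers, Marco overlapped and the others lay above all day 0 arrays. Of the thymic epithelial markers, Krt14, Aire, Cldn3 and Cldn4 lay below all day 0 arrays and the others overlapped. Of the platelet markers, Pf4 and Clec1b lay above all day 0 arrays, Itga2b and Ppbp below them, and Gp9 overlapped. The neutrophil marker Ltf lay higher at day 4. In the erythroid list Alas2 fell from between 6.05 and 6.31 to 3.58 and 3.56, Klf1 lay slightly lower and Hba-a1 overlapped. Under the filter on all arrays were Rag2 for thymocytes, Ngp, Mpo, Elane and Cxcr2 for neutrophils, Cd79a and Pax5 for B cells, Foxn1 for epithelium, and Hba-a1 and Klf1 for erythroid cells.

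Fibroblast markers, of interest because fibroblasts are a known source of MMP2 and TIMPs, lay at 8.13 to 8.31 at day 0 and 8.49 and 8.09 at day 4 (8 genes, none called). Pericyte and smooth muscle markers (8 genes, none called) lay at 8.59 to 8.73 and at 8.71 and 8.61. The part that macrophage, fibroblast or other foreign signal has in the changes of Timp1, Mmp2, Adamts4 and Ctsb was not tested. RNA quality was read from the actin controls, whose 3' probe set exceeded the 5' one by 1.43 to 1.65 log2 units at day 0 and by 1.35 and 1.39 at day 4. For the Gapdh controls the difference was 0.90 to 0.96 at day 0 and 0.82 and 0.83 at day 4, so the groups lay apart for both. The part of RNA quality was not tested either.

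**Figure D4:**
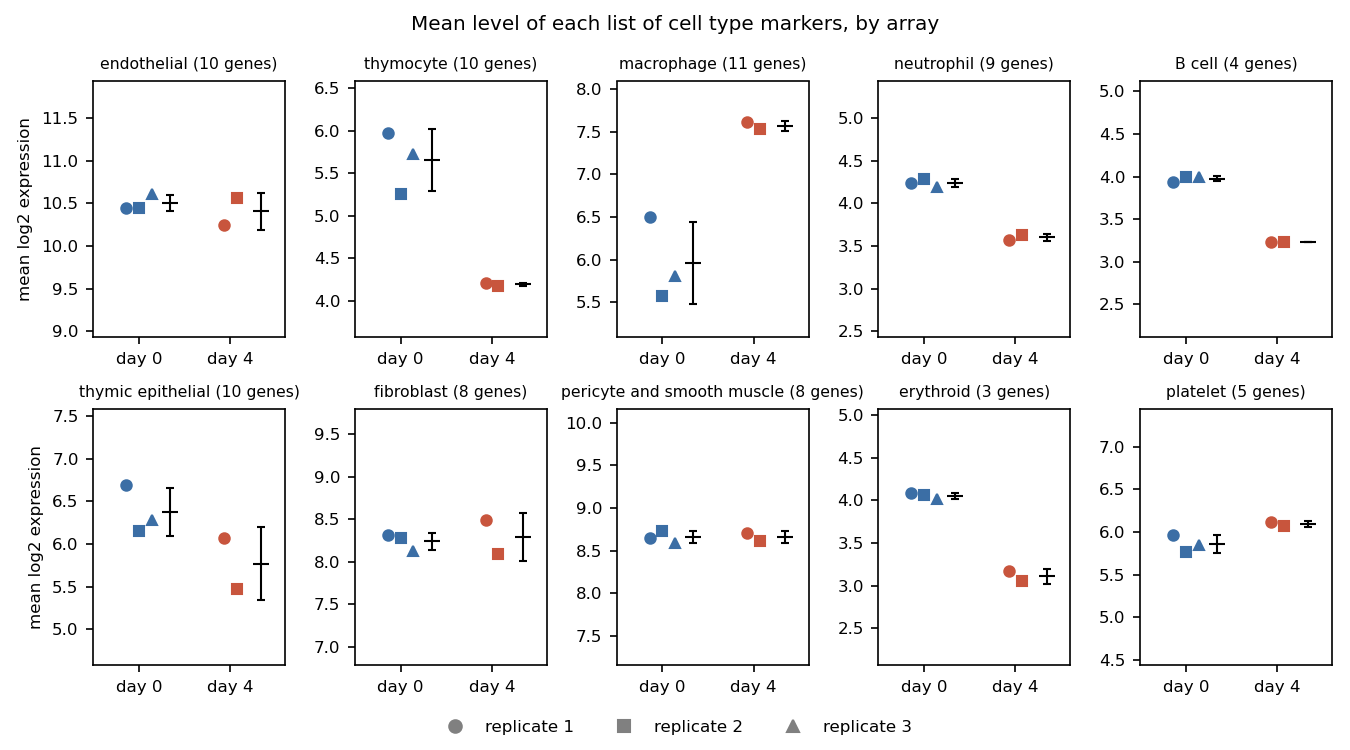
Mean log2 level of 10 lists of cell type markers on each array (y axis; every panel spans 3 log2 units), day 0 in blue and day 4 in red, with mean and SD over arrays. The list mean is higher for macrophages and lower for thymocytes, neutrophils, B cells and erythroid cells on both day 4 arrays. It is slightly higher for platelets, whose markers moved in both directions, and lower for thymic epithelium. The means of the endothelial, fibroblast and pericyte lists overlap between the groups.

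The calls rested on few arrays, and their sizes moved less than their p-values. Timp1 was called in 11 of 14 alternatives, with changes between 1.28 and 1.98. Mmp2 was called in 9 of 14, at 1.01 to 1.29, and Adamts4 in 9 of 14, at 0.82 to 1.03. None of the 3 genes was called without day 0 replicate 3 or without day 4 replicate 1, where 34 and 11 genes in all were.

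**Figure D5:**
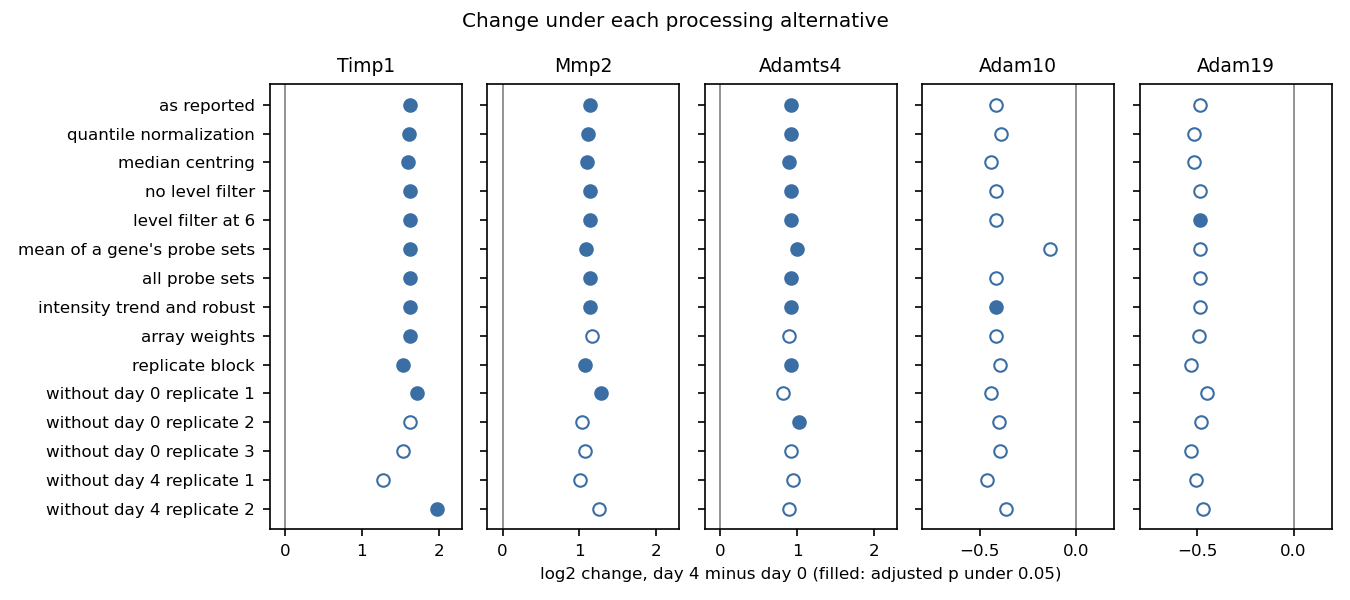
Log2 change of 5 genes (x axis) as reported and under 14 processing alternatives (rows); filled points passed an adjusted p of 0.05. The points of Timp1, Mmp2 and Adamts4 keep to the right of 0 throughout but are open in several of the rows that leave out an array, and for Mmp2 and Adamts4 with array weights, and those of Adam10 and Adam19 keep to the left.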

How the data were processed

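RNA of pooled, sorted thymic endothelial cells was hybridised to Affymetrix arrays, 3 of day 0 and 2 of day 4. The authors deposited 1 log2 value per probe set and array, and the submitters' processing notes name GCRMA. The sources used here do not give a version or say if the 5 arrays were normalized jointly. GCRMA includes quantile normalization, which hides changes shared by most genes. Base and scale were inferred from that tool's usual output and the range (1.57 to 14.4; array medians 5.26 to 5.30). Of 22690 probe sets, 20380 had 1 symbol, and those with several (1 of which names a member) or none were left out of the gene counts. All 84 member probe sets matched a RefSeq gene by Entrez identifier, with 0 symbols changed.

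Probe sets with a log2 value above 4 on at least 2 arrays were kept, and a gene was represented by its probe set with the highest mean. Day 4 was compared with day 0 by lmFit and eBayes (limma 3.58.1, R 4.3.3), two-sided, with Benjamini-Hochberg adjustment over 8940 genes and a threshold of 0.05. The number of arrays limits the precision (3 residual and 3.29 prior degrees of freedom). On simulated data of this comparison with 8940 genes, 83 of 100 genes with a log2 change of 1 and 99 of 100 with 2 were recovered. Of the unchanged genes, 10 were called. The simulated noise was drawn independently for each gene and array, without deviations shared by many genes of an array. These shares therefore need not hold for the real arrays. Genes were named by a fixed rule: called members, all inhibitors, up to 8 highest means and 3 largest changes per family, members with a called probe set and another of opposite sign, and 12 further well-known members with a probe set. Of each list of related genes the called ones or the largest 2 changes were named. Some further members are named for context. The members and lists were chosen with earlier results of these data known. Alternatives changed the normalization, filter, probe set rule, variance model, array weights, replicate block and arrays used. Python 3.11.15 with matplotlib 3.10.9 drew the figures.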

Additional observations from a re-analysis of the deposited data

How the results depend on the processing

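Of 14 alternatives, 8 left 3 higher members and the rest fewer: 1 with array weights, and 0 to 2 when single arrays were left out. No member was called lower in the reported fit, and 1 was with the level filter at 6 (Adam19) and 1 with an intensity trend and robust fitting (Adam10); leaving out single arrays gave 0 lower members each time. The median change of the tested members was 0.093, 0.045 with no level filter, 0.198 with the filter at 6, and 0.091 to 0.187 when single arrays were left out. The cause was not tested beyond the change in the genes tested. Of 367 values of 27 named genes under these alternatives, 330 kept direction and side of the threshold, 13 lost a call, 2 gained one and 22 changed sign, all of genes that were not called. Adam15 changed sign after median centring (-0.003) and as the mean of its probe sets (-0.007), Adam4 after median centring (-0.004), Timp4 as the mean of its probe sets (0.004) and Mmp11 with the replicate block (0.042). Mmp9 did so after quantile normalization (-0.023), median centring (-0.028), array weights (-0.003) and with the replicate block (-0.12). Leaving out single arrays gave ranges across 0 for Adam15 (-0.188 to 0.242), Adam4 (-0.1 to 0.152), Adamts10 (-0.057 to 0.293), Mmp11 (-0.042 to 0.042), Mmp17 (-0.19 to 0.286), Mmp23 (-0.14 to 0.106), Mmp9 (-0.336 to 0.34) and Timp4 (-0.425 to 0.215). Of 20 other probe sets, a comparison added after the values were seen, as were the alternatives for Ctsb and Procr, 4 had the opposite sign, in Adam10 (0.13), Adam15 (-0.017 and -0.12) and Timp4 (0.113).

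The labels' replicate numbers are not stated to pair the arrays. Across genes, deviations of same-numbered arrays correlated at 0.16 and 0.08, and those of differently numbered arrays at -0.16 to 0.10. The deviations of the 2 day 4 arrays mirror each other, so these values do not decide if the arrays are paired. With the replicate number as a block, 3 members were higher and 0 lower, and 481 of all genes were called against 255. The block adds terms to the fit and leaves fewer residual degrees of freedom than the 3 of the reported fit. Its larger number of calls is therefore not firmer evidence. Day 0 replicate 3 has no same-numbered day 4 array, so this fit took its changes from the other arrays alone. The changes of Timp1 (1.53), Mmp2 (1.08) and Adamts4 (0.92) equalled those found without day 0 replicate 3. The same arrays without the block gave 34 called genes and no member. With 3 and 2 arrays, small changes of the untested and uncalled members could not be shown.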
